A study of Mus musculus with 6 samples.

Results

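The genes described here serve the uptake of filtered protein by the proximal tubule: Lrp2 (megalin), Cubn (cubilin), Amn, Dab2, Clcn5, Ocrl, Lrpap1, Rab11fip3 and Fcgrt. They were taken by name, as every row of the array table annotated to exactly 1 gene symbol equal to 1 of these 9, which gave 245 of 212097 such rows and 9 of 20416 genes. A row is an exon-level probe set of the array, and its value is a log2 intensity. Kidneys of mice with induced renal fibrosis under TGF-β1, the main cytokine of scar formation, were measured on 6 arrays. The CBAxB6-TGFbeta group, named for a mixed CBA and B6 background and also labelled KO, held replicates 4, 5 and 6. The B6-TGFbeta group, named for the B6 background and also labelled WT, held replicates 1, 2 and 3. The labels name TGFbeta for each of the 6 samples and no knocked-out gene for any. The sources used here give neither the promoter driving TGF-β1 nor the age or sex of the mice. No mice of either background without induced fibrosis under TGF-β1 were measured. A difference of the backgrounds before any fibrosis therefore cannot be told apart from a different answer to the cytokine. Background also cannot be told apart from whatever KO and WT stand for.

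Plasma proteins of small size pass the glomerular filter and are taken back by the first tubule segment. Megalin, a giant member of the LDL receptor family, and cubilin, a peripheral membrane protein held at the surface by amnionless, bind albumin, vitamin carriers, hormones and enzymes in clathrin-coated pits. The adaptor Dab2 links the receptor tail to clathrin, and the receptors release their cargo in endosomes acidified by the proton pump together with the chloride/proton exchanger ClC-5, product of Clcn5. The cargo goes on to lysosomes, whereas the receptors recycle to the brush border. Loss of CLCN5 or OCRL function in humans causes Dent disease or Lowe syndrome, both with loss of small proteins into the urine.

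Array medians lay between 7.27 and 7.34, and arrays correlated at 0.946 to 0.971 over all rows. B6-TGFbeta replicate 2 had high values of brown fat and adrenal genes, with the brown fat gene Ucp1 at 10.93 against 5.13 to 6.22 on the other arrays. The steroidogenic gene Star stood at 10.74 there, at 8.90 on B6-TGFbeta replicate 1 and at 5.86 to 6.46 on the others. The mean of 10 adrenal markers was 5.68 to 5.79 in CBAxB6-TGFbeta and 5.76 to 8.40 in B6-TGFbeta, and that of 10 fat markers 6.16 to 6.72 in CBAxB6-TGFbeta and 6.02 to 8.21 in B6-TGFbeta. None of these 20 markers passed the limma test described below, and 2 adrenal markers were lower at an unadjusted p under 0.05. Results are therefore also given without these arrays. The defining genes of the kidney were present: the proximal tubule phosphate transporter Slc34a1 averaged 10.29 ± 0.24 in CBAxB6-TGFbeta and 12.17 ± 0.11 in B6-TGFbeta (SD, n = 3 each).

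The receptors megalin and cubilin and their chaperone were lower in CBAxB6-TGFbeta kidneys, while the adaptor, the anchor, the exchanger and the lipid phosphatase of the same route did not pass the test. In limma over all 20416 genes, with Benjamini-Hochberg adjustment and a threshold of 0.05, Lrp2, Cubn and Lrpap1 were lower (3 of 9), none was higher and 6 did not pass. Of all genes, 4.57% were called lower and 3.08% higher, 7.65% together. At an unadjusted p under 0.05, 5 of the 9 genes were lower and 0 higher. Of all 20416 genes, 2265 were lower and 2134 higher at that threshold. The median log2 difference was -0.30 over the 9 genes and 0.02 over all genes. In bulk kidney, fewer cells of a type and less RNA per cell cannot be told apart. The members move beside larger shifts in cell markers: of 20 proximal tubule markers, 17 were lower, with a list mean of 9.36 to 10.12 in CBAxB6-TGFbeta and 11.04 to 11.20 in B6-TGFbeta. Of 12 macrophage markers 8 were higher (8.15 to 8.69 in CBAxB6-TGFbeta, 7.22 to 7.51 in B6-TGFbeta), and of 12 tubular injury markers 9 were higher (9.35 to 9.96 in CBAxB6-TGFbeta, 8.21 to 8.33 in B6-TGFbeta). Podocyte markers (4 of 8 lower, 8.18 to 8.51 in CBAxB6-TGFbeta and 8.58 to 8.62 in B6-TGFbeta) and endothelium markers (5 of 10 lower, 8.87 to 8.99 in CBAxB6-TGFbeta and 9.30 to 9.38 in B6-TGFbeta) moved less. In fits without 1 array, 1 to 13 of the proximal tubule markers were lower, 0 to 2 of the macrophage markers higher, 3 to 7 of the injury markers higher, 0 to 1 of the podocyte markers lower and 0 of the endothelium markers lower. At an unadjusted p under 0.05 over all 6 arrays, 10 of 10 endothelium markers were lower. The part of these shifts in the results below was not tested.

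**Figure D1:**
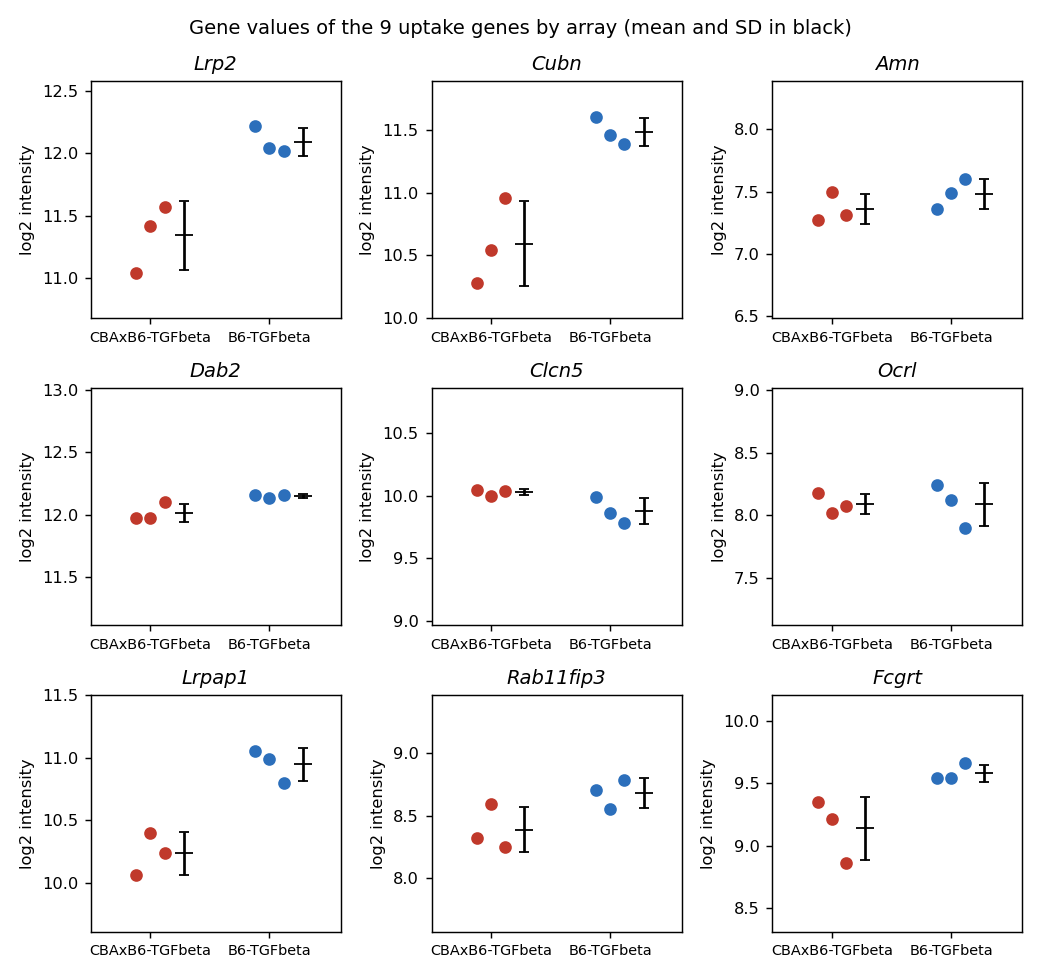
Log2 intensity of each of the 9 genes on each array (dots), CBAxB6-TGFbeta left and B6-TGFbeta right, with the group mean and SD in black. Every panel spans the same log2 range. The groups separate widely for Lrp2, Cubn and Lrpap1 and overlap for Amn, Ocrl and Rab11fip3.

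Lrp2 encodes megalin, the receptor that carries both itself and the cubilin complex into the cell. Its gene value was 11.04, 11.42 and 11.57 in CBAxB6-TGFbeta (replicates 4, 5 and 6), against 12.22, 12.04 and 12.02 in B6-TGFbeta (replicates 1, 2 and 3). All CBAxB6-TGFbeta arrays lay below all B6-TGFbeta arrays, as in 13.4% of all genes, and replicate 4 was the lowest. The log2 difference was -0.75 (SE 0.14, adjusted p 0.0144 in limma), which leaves 59.5% of the B6-TGFbeta intensity. Lrp2 stood at the 99.6th percentile of gene intensities on this array, and its difference at the 1.7th percentile of all differences.

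Cubn encodes cubilin, the receptor for intrinsic factor with vitamin B12, albumin and vitamin D-binding protein. Its gene value was 10.28, 10.54 and 10.96 in CBAxB6-TGFbeta, against 11.61, 11.46 and 11.39 in B6-TGFbeta. The groups did not overlap, as in 13.4% of all genes in this direction. The spread was wider in CBAxB6-TGFbeta (SD 0.34, n = 3) than in B6-TGFbeta (SD 0.11, n = 3). The log2 difference of -0.90 (SE 0.16, adjusted p 0.0122 in limma) leaves 53.7% of the B6-TGFbeta intensity and was the largest among the 9 genes.

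Lrpap1 encodes RAP, the endoplasmic reticulum chaperone that keeps megalin and its relatives from binding ligands before they reach the surface. Its gene value was 10.06, 10.40 and 10.24 in CBAxB6-TGFbeta, against 11.05, 10.99 and 10.80 in B6-TGFbeta. The groups did not overlap, as in 13.4% of all genes in this direction. The log2 difference was -0.72 (SE 0.12, adjusted p 0.00839 in limma), or 60.7% of the B6-TGFbeta intensity. All 3 calls were lost when the gene values and the fit were recomputed without CBAxB6-TGFbeta replicate 4 or 5, or without any of the B6-TGFbeta replicates 1, 2 and 3. Without CBAxB6-TGFbeta replicate 6, only Cubn passed (adjusted p 0.0313). Over these 6 fits the log2 differences stayed at -0.86 to -0.57 for Lrp2, -1.05 to -0.71 for Cubn and -0.81 to -0.64 for Lrpap1. With B6-TGFbeta represented by replicate 3 alone, its array with the fewest signs of other tissues, they were -0.69, -0.84 and -0.61, and none passed (adjusted p 0.308, 0.272 and 0.294). In that fit the spread comes from the 3 CBAxB6-TGFbeta arrays alone and the lone array is assumed to vary like them, and 15 of all genes were called lower, so a missed call there says little.

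The 3 lower genes are shown by sequence upstream of their start sites because each was called lower in the main fit. The 250 bases before the start are from RefSeq (build GRCm38.p6), written 5′ to 3′ on the gene's strand. Dab2, which did not pass the test, is added at its second start site as the only window of the 12 held for the 9 genes with more than 1 motif. Windows were searched on either strand for GTTAAT (core of the HNF1 site), AAGTCCA (part of the HNF4 site) and AGGTCA (the hexamer of nuclear receptor sites), and matches are in capitals. No motif overlaps another in these windows.
Lrp2, chr2:69586030-69586279, minus strand: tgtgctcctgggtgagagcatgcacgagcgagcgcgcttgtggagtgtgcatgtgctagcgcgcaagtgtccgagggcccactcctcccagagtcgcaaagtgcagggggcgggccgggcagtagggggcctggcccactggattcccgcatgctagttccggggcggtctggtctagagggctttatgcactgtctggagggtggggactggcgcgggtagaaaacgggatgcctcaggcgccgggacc
Cubn, chr2:13491877-13492126, minus strand: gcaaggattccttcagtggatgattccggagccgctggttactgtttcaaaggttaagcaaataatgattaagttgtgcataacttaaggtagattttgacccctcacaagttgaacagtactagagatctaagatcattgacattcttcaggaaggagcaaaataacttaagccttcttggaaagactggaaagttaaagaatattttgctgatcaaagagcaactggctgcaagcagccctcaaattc
Lrpap1, chr5:35105700-35105949, minus strand: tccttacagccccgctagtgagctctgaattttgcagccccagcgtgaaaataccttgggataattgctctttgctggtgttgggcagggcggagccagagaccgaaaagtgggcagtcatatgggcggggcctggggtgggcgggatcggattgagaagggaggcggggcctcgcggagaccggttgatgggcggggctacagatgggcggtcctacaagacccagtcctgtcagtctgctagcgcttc
Dab2, second start site, chr15:6386498-6386747, plus strand: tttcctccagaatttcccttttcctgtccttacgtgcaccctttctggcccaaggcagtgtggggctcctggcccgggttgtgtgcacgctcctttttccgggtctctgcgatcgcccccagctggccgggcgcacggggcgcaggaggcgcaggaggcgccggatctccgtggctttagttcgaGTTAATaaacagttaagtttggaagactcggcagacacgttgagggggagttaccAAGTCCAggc
None of the 3 motifs stands in the windows of Lrp2, Cubn or Lrpap1. The Dab2 window holds GTTAAT and AAGTCCA, and a window of Rab11fip3 also holds AAGTCCA. Of all 32851 promoter windows, 6.43% hold GTTAAT, 3.36% AAGTCCA and 14.0% AGGTCA. The windows differ in base composition, with 66.4% G and C and 18 CpG in Lrp2, 60.8% and 14 in Lrpap1 and 39.6% and 2 in Cubn, beside medians of 52.4% and 6 over all windows.

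The exon rows gave the same direction for the receptors along the whole set of rows measured. The difference was negative in 81 of 81 Lrp2 rows (median -0.79, from -1.61 to -0.07), in 68 of 68 Cubn rows (median -0.92, from -1.84 to -0.51) and in 8 of 8 Lrpap1 rows (median -0.73, from -0.86 to -0.46), where 50.1% of all rows were negative. Rows of 1 gene are read from the same arrays and are not replicates. All CBAxB6-TGFbeta arrays lay below all B6-TGFbeta arrays in 74 Lrp2, 64 Cubn and 7 Lrpap1 rows, and in 10.7% of all rows. In the row-by-row limma fit, adjusted over all 212097 rows, 3 of the 245 rows were lower and 0 higher, and 0.351% of all rows were called lower and 0.279% higher. At an unadjusted p under 0.05, 147 of the 245 rows were lower and 1 higher. Of the lower rows, 65 were in Lrp2 and 67 in Cubn, so the count mostly restates these genes. The share of all rows at that threshold was not calculated. The 3 rows called are all in Lrp2, with differences of -1.27 (SE 0.19), -1.26 (SE 0.20) and -1.61 (SE 0.23) and adjusted p of 0.0472, 0.0490 and 0.0389 in limma. The last of these rows read 9.0, 9.10 and 9.67 in CBAxB6-TGFbeta and 10.94, 10.95 and 10.73 in B6-TGFbeta, or 32.7% of the B6-TGFbeta intensity. When each array was left out in turn, 1 row passed without CBAxB6-TGFbeta replicate 6 and none in the other fits.

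**Figure D2:**
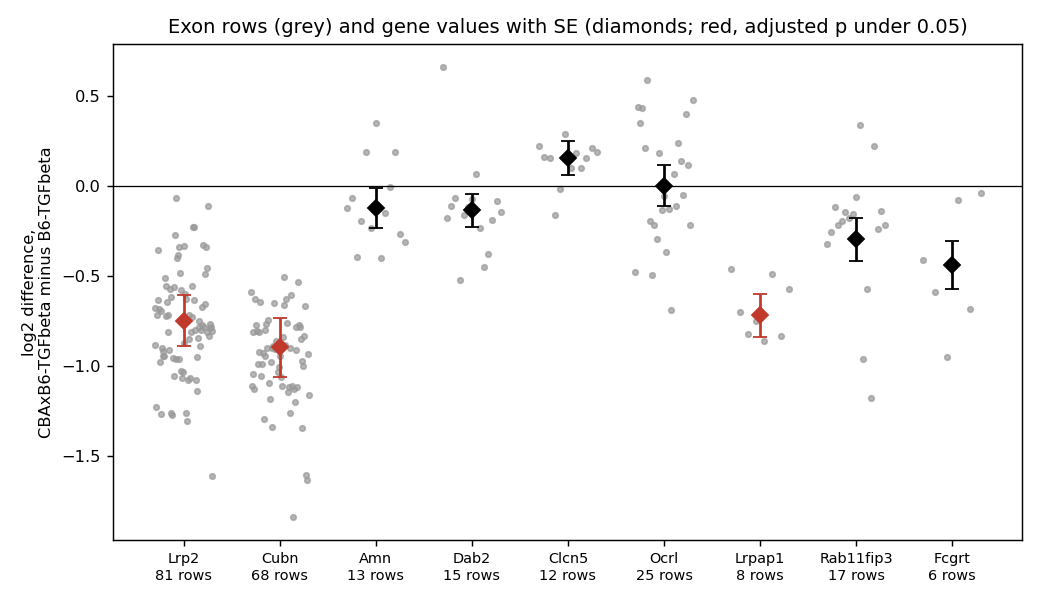
Log2 difference, CBAxB6-TGFbeta minus B6-TGFbeta, of each exon row (grey dots) and of the gene value with its SE (diamonds, red where adjusted p is under 0.05). All Lrp2, Cubn, Lrpap1 and Fcgrt rows lie below 0, whereas the rows of Ocrl lie on either side.

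In Lrp2 and Cubn, the difference tended to be closer to 0 in brighter rows. Across the 81 Lrp2 rows, the mean level and the difference correlated at Pearson's r 0.57 and Spearman's rho 0.72, and across the 68 Cubn rows at 0.70 and 0.60. Rows of a gene share arrays and a transcript. The same was not seen in the 8 Lrpap1 rows (r -0.23, rho -0.05) or the 6 Fcgrt rows (r -0.40, rho -0.54), and over the other 5 genes r ran from -0.39 to 0.13. The brighter 41 Lrp2 rows had a median difference of -0.60 and the dimmer 40 rows -0.91. In Cubn the brighter 34 rows had -0.81 and the dimmer 34 rows -0.998. The brightest Lrp2 row, at a mean of 13.37 in CBAxB6-TGFbeta and 13.59 in B6-TGFbeta, differed by -0.23 (SE 0.17), so a gene value taken from the brightest row alone did not pass (adjusted p 0.415). With the brightest rows of Cubn and Lrpap1 the differences were -0.61 and -0.49 and did not pass either (adjusted p 0.0924 and 0.145). In rows with a mean level within 0.5 of 12, a window chosen after the values were seen, the median difference was -0.75 over 35 Lrp2 rows, -0.77 over 18 Cubn rows and -0.18 over 6 Dab2 rows. The Dab2 rows in that window ran from -0.38 to -0.11.

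**Figure D3:**
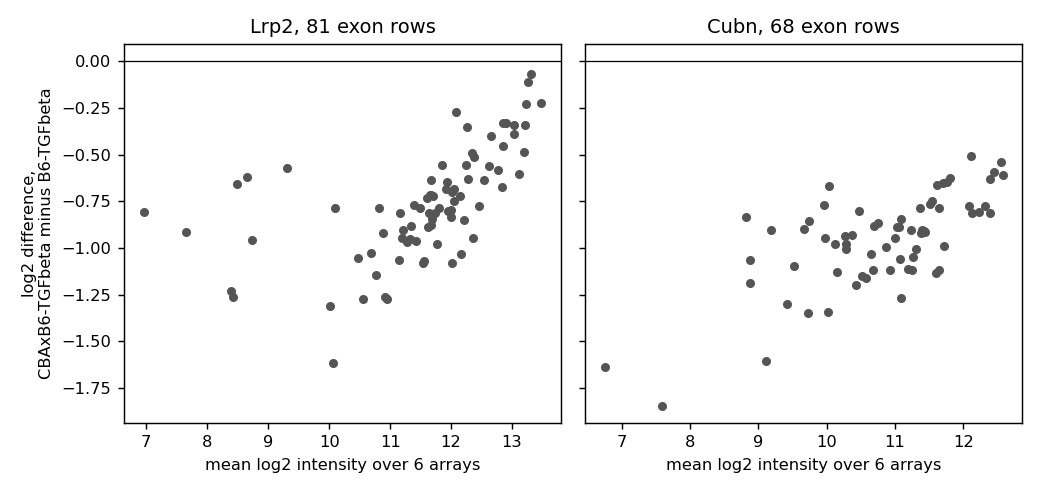
Difference of each exon row of Lrp2 (left) and Cubn (right), CBAxB6-TGFbeta minus B6-TGFbeta on the log2 scale, against its mean log2 intensity over 6 arrays. All points are below 0, and differences tend to lie closer to 0 in brighter rows, with exceptions in both genes.

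The adaptor and the membrane anchor of the receptors did not pass the test. Dab2, the clathrin adaptor for the megalin tail, read 11.97, 11.97 and 12.10 in CBAxB6-TGFbeta and 12.16, 12.13 and 12.16 in B6-TGFbeta. The groups did not overlap, as in 13.4% of all genes in this direction, but the log2 difference of -0.14 (SE 0.09) did not pass (adjusted p 0.455 in limma). Macrophages also express Dab2, and their markers were higher in CBAxB6-TGFbeta, as given above. Of 15 Dab2 rows 13 were negative, and the most positive stood at 0.66 (SE 0.28, adjusted p 0.347). Amn encodes amnionless, the membrane anchor of cubilin. It read 7.27, 7.5 and 7.31 in CBAxB6-TGFbeta and 7.36, 7.49 and 7.60 in B6-TGFbeta. The groups overlapped, with a log2 difference of -0.12 (SE 0.11, adjusted p 0.581 in limma). Amn stood at the 60.6th percentile of gene intensities, against the 99.6th for Lrp2 and the 98.6th for Cubn. The part of this lower level in the missed call was not tested.

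To ask whether the receptors moved more than the adaptor, Dab2 was subtracted from every gene on the same array. Limma was then refitted over all genes, a test chosen after seeing the data. The share of all genes called in that refit was not calculated, so the calls below cannot be set beside it. Macrophages also express Dab2, as given above, and their part in these differences was not tested. Relative to Dab2, Lrp2 was lower by a log2 difference of -0.61 (SE 0.13, adjusted p 0.0208), Cubn by -0.76 (SE 0.15, adjusted p 0.0132) and Lrpap1 by -0.58 (SE 0.13, adjusted p 0.0221). Leaving out each array in turn gave -0.68 to -0.47 for Lrp2, -0.87 to -0.61 for Cubn and -0.71 to -0.54 for Lrpap1. Lrp2 kept an adjusted p under 0.05 only without CBAxB6-TGFbeta replicate 6, Cubn without replicate 4 or 6 and Lrpap1 without replicate 5 or 6, whereas without B6-TGFbeta replicate 1, 2 or 3 none of these genes passed. On the brightest rows the 3 values were -0.14, -0.52 and -0.41, and none passed. For Amn the difference relative to Dab2 was 0.01 (SE 0.12, adjusted p 0.953), and for Clcn5, Ocrl, Rab11fip3 and Fcgrt it was 0.29, 0.14, -0.16 and -0.31 (SE 0.11 to 0.16), none of which passed (adjusted p 0.111 to 0.465).

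The endosomal genes of inherited protein loss did not pass the test. Clcn5 read 10.05, 10 and 10.04 in CBAxB6-TGFbeta and 9.99, 9.86 and 9.78 in B6-TGFbeta. Among the 9 genes, only Clcn5 had its CBAxB6-TGFbeta arrays all above those of B6-TGFbeta, a pattern found in 13.5% of all genes. Its log2 difference of 0.16 (SE 0.10) did not pass (adjusted p 0.407 in limma). The difference was positive in 10 of 12 Clcn5 rows. Ocrl encodes an inositol polyphosphate 5-phosphatase that removes PI(4,5)P2 from coated pits and early endosomes. It read 8.18, 8.02 and 8.07 in CBAxB6-TGFbeta and 8.24, 8.12 and 7.90 in B6-TGFbeta, with a log2 difference of 0.00 (SE 0.11, adjusted p 0.994). Its 25 rows were split, 13 negative and 12 positive, from -0.69 to 0.59.

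The recycling genes had intermediate values. Rab11fip3 encodes an effector of RAB11 in recycling endosomes. It read 8.32, 8.59 and 8.25 in CBAxB6-TGFbeta and 8.71, 8.55 and 8.79 in B6-TGFbeta, so that replicate 5 lay inside the B6-TGFbeta range. Its log2 difference of -0.30 (SE 0.12) did not pass (adjusted p 0.188), although 15 of 17 rows were negative. A pair of its rows stood lowest, at -1.18 (SE 0.24, adjusted p 0.0915 in limma) and -0.96 (SE 0.26, adjusted p 0.162). The next most negative row stood at -0.57 (SE 0.22, adjusted p 0.302), beside a median of -0.20 over all its rows. Fcgrt encodes the heavy chain of the neonatal Fc receptor, which salvages albumin and IgG and is also expressed in podocytes, endothelium and macrophages. It read 9.35, 9.21 and 8.86 in CBAxB6-TGFbeta and 9.54, 9.54 and 9.66 in B6-TGFbeta. The groups did not overlap, as in 13.4% of all genes in this direction, and 6 of 6 rows were negative. The log2 difference of -0.44 (SE 0.13) did not pass (adjusted p 0.0833 in limma). With the dimmer 50% of rows removed it was -0.61 and passed (adjusted p 0.0302 in limma). Fcgrt passed in only 1 of 16 alternative fits, and in 0 of the 6 fits without 1 array. Of the markers given above, those of podocytes and endothelium were lower in part and those of macrophages were higher in part (8 of 12, median 0.92), and their part in the Fcgrt values was not tested. B2m, the light chain of the receptor, named here for that role, differed by 0.02 on the log2 scale (SE 0.11, adjusted p 0.945).

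The difference between the groups was less negative in each of the 9 uptake genes than in the mean of the proximal tubule markers. The mean of the 20 markers differed by -1.34 on the log2 scale, with single markers from -2.57 to -0.34. Of the 20 markers, 3 had a difference less negative than that of Lrp2, 3 than that of Lrpap1 and 5 than that of Cubn. After subtraction of this mean on each array, the CBAxB6-TGFbeta arrays were higher than each B6-TGFbeta array for 9 of 9 genes, as they were for 97.9% of all genes, so the count says nothing particular about the 9 genes. For Lrp2 the relative values were 1.68, 1.62 and 1.45 in CBAxB6-TGFbeta and 1.01, 0.98 and 0.98 in B6-TGFbeta, a difference of 0.59. For Cubn they were 0.92, 0.74 and 0.84 in CBAxB6-TGFbeta and 0.41, 0.41 and 0.35 in B6-TGFbeta, a difference of 0.44. The other 7 genes differed by 0.62 (Lrpap1) to 1.496 (Clcn5). The markers were chosen with their lower values in these data known, so these values are a description and carry no test. The relative level of a gene depends on its probes, so only the differences between groups can be read.

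**Figure D4:**
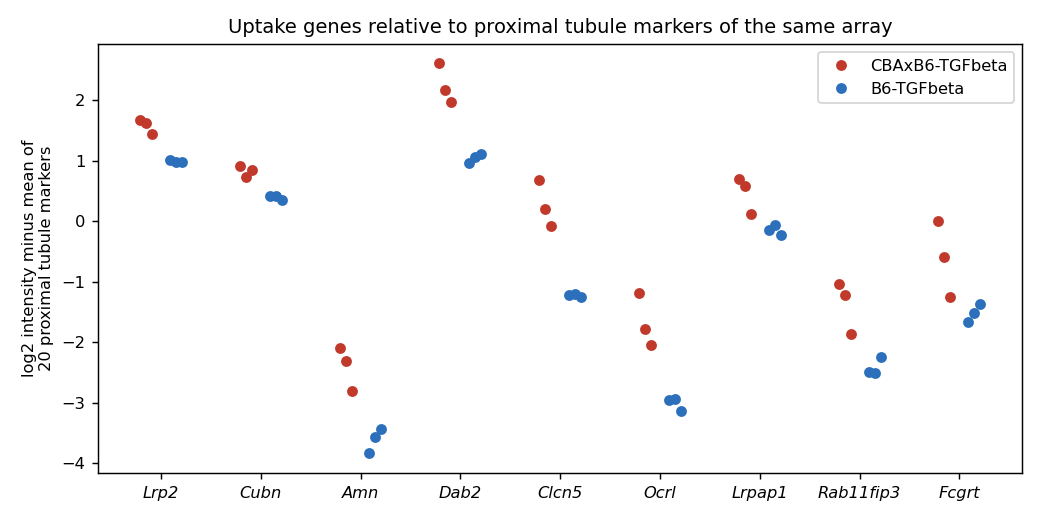
Log2 intensity of each gene minus the mean of 20 proximal tubule markers of the same array, CBAxB6-TGFbeta in red left of B6-TGFbeta in blue. For 9 of 9 genes the CBAxB6-TGFbeta points lie above the B6-TGFbeta points, by 0.44 in Cubn and 1.496 in Clcn5, as they do for 97.9% of all genes.

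Distances between profiles over the 6 arrays mostly restate the group differences above, since a gap between the groups enters each of them. After centring each gene, Lrp2 differed from Cubn by a root mean square of 0.11 and from Lrpap1 by 0.12 on the log2 scale, Cubn from Lrpap1 by 0.20, and Lrp2 from Dab2 by 0.34 and from Amn by 0.37. Clcn5 and Ocrl were the closest pair (0.10), and Amn lay at 0.12 from Dab2. Among all other genes, the 5 nearest to Lrp2 were Unc13c, Mdh1, Anpep, Kcnj1 and Pcdh17, at 0.04 to 0.06, and the 5 nearest to Cubn were Fut9, Enpp2, Slc15a2, Aadac and 4931406C07Rik, at 0.04 to 0.07. Their log2 differences ran from -0.78 to -0.68 and from -0.97 to -0.84.

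Beyond the 9 genes, 7 lists of the route, its cargo, related genes and transcription factors held 136 measured genes. Of these, 11 were lower and 3 higher, or 8.09% and 2.21%, beside 4.57% and 3.08% of all genes. Lists with 1 call lie near the share over all genes. Hnf4a, lower here, is also counted among the proximal tubule markers, and Lcn2, higher here, among the tubular injury markers. Of 25 clathrin coat and adaptor genes, Amph was higher (0.60, SE 0.15), none was lower and 24 did not pass. At an unadjusted p under 0.05, 4 of the 25 were lower and 1 higher, beside 2265 and 2134 of all 20416 genes. Of 30 genes of early endosomes and recycling, Rab11fip4, a relative of Rab11fip3, was lower (-0.58, SE 0.09) and 29 did not pass. Of 17 genes of phosphoinositide 5-phosphatases and their partners, Inpp5j was lower (-0.50, SE 0.12) and 16 did not pass, with Inpp5b, the closest relative of Ocrl, named for that role, at -0.14 (SE 0.09, adjusted p 0.423). The medians of these lists were -0.02, -0.02 and -0.01.

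Of 16 genes of endosomal ion transport and acidification, 3 were lower and 13 did not pass (median -0.18). These were the sodium/proton exchanger Slc9a3 (-1.07, SE 0.10), which resides in the brush border and in apical endosomes, and the proton pump subunits Atp6v0a4 (-0.56, SE 0.11) and Atp6v1a (-0.47, SE 0.11). Atp6v1a stood at -0.07 on its brightest row. In the LDL receptor family and its chaperones, 2 of 15 were lower and 13 did not pass (median -0.05). Lrp4 (-0.74, SE 0.15) and the sorting receptor Sorl1 (-0.47, SE 0.11) were lower, while Mesdc2, another chaperone of the family, named for that role, stood at 0.02 (SE 0.09, adjusted p 0.932).

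Of 21 genes of vitamin and carrier uptake, 2 were lower, 2 were higher and 17 did not pass (median -0.13). The folate receptor Folr1 was lower (9.41 ± 0.08 in CBAxB6-TGFbeta and 10.37 ± 0.02 in B6-TGFbeta, SD, n = 3 each), with a log2 difference of -0.97 (SE 0.09, adjusted p 0.000696 in limma). Tcn2, which encodes the vitamin B12 carrier transcobalamin, a ligand of megalin, was lower (-0.77, SE 0.10, adjusted p 0.00244). Lcn2, a megalin ligand also made by injured tubules, was higher (2.17, SE 0.20, adjusted p 0.000635), as was the retinol transporter gene Stra6 (0.50, SE 0.11, adjusted p 0.0300), which stood at 0.10 on its brightest row. Of 12 measured transcription factors of the proximal tubule, 2 were lower and 10 did not pass (median -0.22): Hnf4a (-0.89, SE 0.14), which stood at -0.38 on its brightest row, and Ppara (-0.72, SE 0.13).

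Of these 14 genes of the lists, Folr1 passed in 15 of 16 alternative fits, Slc9a3 in 12, Tcn2 in 11 and Lcn2 in 10, and each of the others in 8 or fewer. Without B6-TGFbeta replicate 2, Folr1 (-0.94, adjusted p 0.0399) and Slc9a3 (-1.09, adjusted p 0.0393) passed and the other 12 did not. Over the 7 lists, 1 to 4 genes were lower and 0 to 2 higher when each array was left out in turn.

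**Figure D5:**
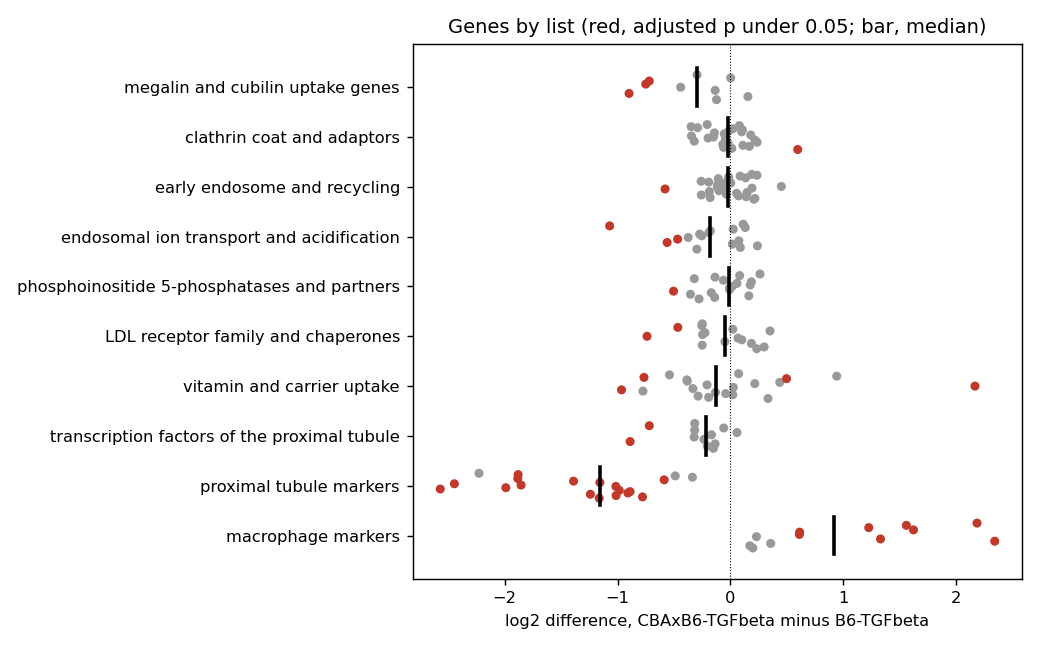
Log2 difference, CBAxB6-TGFbeta minus B6-TGFbeta, of each gene of the lists (dots, red where adjusted p is under 0.05) with the list median (bar). The lists of clathrin coat, early endosome and phosphoinositide genes have medians of -0.02, -0.02 and -0.01, the proximal tubule markers lie below 0 (median -1.16) and the macrophage markers above it (median 0.92).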

How the data were processed

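The deposited values are log2 intensities of exon-level rows, 1 column per array. Per the submitters' processing notes, RMA and Partek were used, with no version given. The build behind the platform annotation is not given in the sources used here, so no coordinates of rows or genes are printed. Coordinates of promoter windows are those of RefSeq on GRCm38.p6. Of 241576 rows, 212097 carried 1 symbol in the platform annotation and were used. Tukey's median polish over these rows gave values for 20416 genes, and 4475 rows with several symbols and 25004 with none were left out. Differences are CBAxB6-TGFbeta minus B6-TGFbeta from limma 3.58.1 in R 4.3.3, with 1 group term over all 6 arrays, moderated variances and two-sided p-values adjusted by Benjamini-Hochberg over all genes or all rows. The number of arrays limits the precision, and where nothing says that samples came from separate animals the p-values measure only the spread between them. The calculations were tested on simulated data with independent noise for each gene and array. Those data held no array with signs of other tissues and no shift of cell types. They therefore cannot show how the calls respond to either.

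The members, the 7 pathway lists and the 7 marker lists were chosen with earlier results of these data known, and lists were described by counts and medians. List symbols were matched through RefSeq synonyms, 136 of 143 in the pathway lists, and those without a match were not analysed here. Named were the 9 members, up to 4 passing genes per pathway list with the smallest p, and the 5 genes with the profiles nearest to Lrp2 and to Cubn. Genes named for a role alone (B2m, Inpp5b, Mesdc2) were chosen after their values were seen, as were Ucp1 and Star. Alternatives were other normalizations, row summaries, filters and variance models, and each array left out in turn with the gene values recomputed. Protein motifs were planned but not analysed here.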

Additional observations from a re-analysis of the deposited data

How the results depend on the processing

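No paired analysis was possible because the groups share no replicate numbers. The directions of Lrp2, Cubn, Lrpap1, Dab2, Clcn5, Rab11fip3 and Fcgrt held in all 16 alternative fits, in none of which a member was called higher. Member rows were fitted under 13 alternatives, with none called higher. Lrp2 passed in 7, Cubn in 8 and Lrpap1 in 7 of these 16 fits. The cause of each change below was not tested. The count of lower members was 0 with the brightest row of each gene, 0 without moderation and 0 with B6-TGFbeta represented by replicate 3 alone. With each array left out it was 0 to 1, and 0 to 4 where the gene values summarised over all 6 arrays were kept (an alternative added after seeing the data). Lower member rows numbered 1 after median centring, 16 without the dimmest 25% of rows and 71 with trended and robust moderation. They numbered 7 with array weights, 0 without moderation and 0 to 1 with each array left out. Counts over all rows under these settings were not calculated, so these changes cannot be read as particular to the members. Lower pathway genes numbered 4 on brightest rows, 1 without moderation, 17 with array weights, 0 with replicate 3 alone and 1 to 4 with each array left out, and higher ones 1, 0, 4, 0 and 0 to 2. Over all genes, 934 were lower and 628 higher. These counts were 282 and 335 on brightest rows, 40 and 23 without moderation, 15 and 25 with replicate 3 alone, 36 to 335 and 21 to 219 with each array left out, and 1269 and 974 with array weights. The difference of Ocrl, near 0, changed sign on the brightest row (-0.21), without the dimmer 50% of rows (-0.061), with array weights (-0.051) and over the arrays left out (-0.07 to 0.06), and that of Amn without B6-TGFbeta replicate 3 (-0.164 to 0.005 over the arrays left out). Relative to Dab2, the sign turned for Amn (-0.038) and Ocrl (-0.13) on brightest rows and for Amn over the arrays left out (-0.058 to 0.098). The 9 of 9 members above the B6-TGFbeta arrays relative to the tubule markers became 8 on brightest rows and stayed 9 with the markers' median and with each array left out. The sources used here give no detection call, so the level below which a row carries no signal is unknown.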
